A study of Mus musculus with 8 samples.

Results

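The 10 genes described here make or control MHC class I molecules: the heavy chains H2-K1, H2-D1, H2-Q4, H2-Q6, H2-Q7, H2-T22 and H2-T23, the light chain B2m, the loading factor Tapbp and the transactivator Nlrc5. They were taken by gene symbol from 17700 genes counted in cerebellum RNA, and all 10 had enough counts to be tested among 14191 genes. The RNA came from 8 C57BL/6JN mice, 4 old (83 to 102 weeks) and 4 young (19 to 22 weeks), and each age held 2 males and 2 females. Old 1 and old 3 were males of 93 and 83 weeks, and old 2 and old 4 were females of 83 and 102 weeks. Young 1 and young 2 were males of 19 weeks, and young 3 and young 4 were females of 19 and 22 weeks. No allele or treatment other than age is given, and the series' design text names liver and other ages, so tissue, age and sex follow the sample labels. Within each age the labels give every library its own combination of age and sex, except young 1 and young 2, which share theirs.

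An MHC class I molecule is a heavy chain that spans the membrane, paired with the small soluble protein beta-2 microglobulin, and it shows peptides from inside the cell to CD8 T cells and natural killer cells. The classical heavy chains, here H2-K1 and H2-D1, are made by most cell types, whereas the nonclassical H2-Q and H2-T chains vary little between individuals and have narrower roles. Interferons raise class I transcription through IRF factors, and Nlrc5 is recruited to an enhanceosome of RFX, CREB and NF-Y factors on class I promoters. In the brain, microglia, endothelium and some neurons carry class I molecules, which have been studied in synapse remodelling as well as in immune surveillance.

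Gene totals were 6079485 to 7236720 counts per library, and levels are given in CPM, the count scaled to the TMM-adjusted library total. A floor of 3 counts lay between 0.421 and 0.511 CPM, depending on the library. This floor and the counting intervals below cover counting error only. Granule neuron markers summed to 4442 to 6178 CPM in old and 4873 to 7519 CPM in young libraries. Liver markers were highest in old 2, old 3 and young 4, at 84.2, 23.6 and 21.2 CPM, and summed to 0.682 to 9.63 CPM in the other libraries. Choroid plexus markers ranged from 106 to 1530 CPM in old and from 83.8 to 715 CPM in young libraries.

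The promoters of the class I genes are shown first as a description of sequence, and their part in the age differences was not tested. RefSeq start sites on GRCm38.p6 were matched for 9 of the 10 genes. Matches to 4 motifs were searched on both strands in the 250 bases before each start, and no matches of different motifs overlapped. AANNGAAA is the core that interferon regulatory factors (IRF) recognise, the kappa B site is bound by NF-kappa B, TGACG is the half-site of the X2 box and CCAAT is the core of the Y box that NF-Y binds. The stretches below run from 25 bases before the first IRF match to 90 bases past its first letter, and capitals mark the matches of these motifs, the first run of capitals in H2-K1, H2-Q4, H2-Q6 and H2-Q7 being the kappa B match. The kappa B pattern searched was the form in capitals in H2-K1 and H2-Q4, with any base allowed at the letter where they differ. Other forms of the kappa B site were not searched. A promoter without a match, such as that of B2m, may therefore still hold such a site. H2-T22 is shown as a heavy chain with the IRF match and no match to this kappa B pattern. The stretches are read 5′ to 3′ on the strand of each gene.
H2-K1, chr17:34000348-34000462, minus strand: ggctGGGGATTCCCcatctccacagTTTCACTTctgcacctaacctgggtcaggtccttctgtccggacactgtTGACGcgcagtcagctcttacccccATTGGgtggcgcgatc
H2-Q4, chr17:35379439-35379553, plus strand: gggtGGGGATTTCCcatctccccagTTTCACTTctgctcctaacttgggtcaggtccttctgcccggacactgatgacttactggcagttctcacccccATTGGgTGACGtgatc
H2-Q6, chr17:35424673-35424787, plus strand: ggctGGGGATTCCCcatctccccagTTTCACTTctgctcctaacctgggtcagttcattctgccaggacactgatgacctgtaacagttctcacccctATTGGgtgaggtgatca
H2-Q7, chr17:35439017-35439131, plus strand: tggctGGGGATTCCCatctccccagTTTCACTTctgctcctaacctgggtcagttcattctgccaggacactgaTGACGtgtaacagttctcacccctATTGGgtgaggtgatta
H2-T22, chr17:36042844-36042958, minus strand: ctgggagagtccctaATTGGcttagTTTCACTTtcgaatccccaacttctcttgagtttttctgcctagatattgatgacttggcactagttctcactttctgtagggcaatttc
B2m, chr2:122147525-122147639, plus strand: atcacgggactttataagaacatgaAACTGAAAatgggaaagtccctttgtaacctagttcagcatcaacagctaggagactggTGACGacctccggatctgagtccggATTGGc

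The kappa B pattern was found in 5 of the 9 promoters, those of H2-K1, H2-D1, H2-Q4, H2-Q6 and H2-Q7, and in 0.24% of 27025 promoters of the same length. These 5 promoters are alike in sequence around the matches, so they are not independent and no enrichment was tested. In H2-K1, H2-D1, H2-Q4 and H2-Q6 its first letter lay 21 bases before that of the IRF match, and in H2-Q7 it lay 20 bases before. The IRF core was found in 8 of the 9, all but Tapbp, and in 21.6% of promoters. The X2 half-site was found in 6 of the 9 and in 17.9% of promoters, and the CCAAT box in all 9 and in 34.5%. TGACG was counted wherever it lay. In H2-K1, H2-D1, H2-Q7 and B2m it preceded the ATTGG match. In H2-Q4 it followed the ATTGG match, at -73 against -79 bases from the start, and in H2-T22 it followed every CCAAT match. Whether the matches in H2-Q4 and H2-T22 are part of an X2 box was not tested. H2-D1, with 1.22 times its young mean in old mice, holds the same kappa B and IRF matches as H2-K1, with 2.30 times. A match is a sequence description only, and these windows say nothing of whether a factor was bound.

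**Figure D1:**
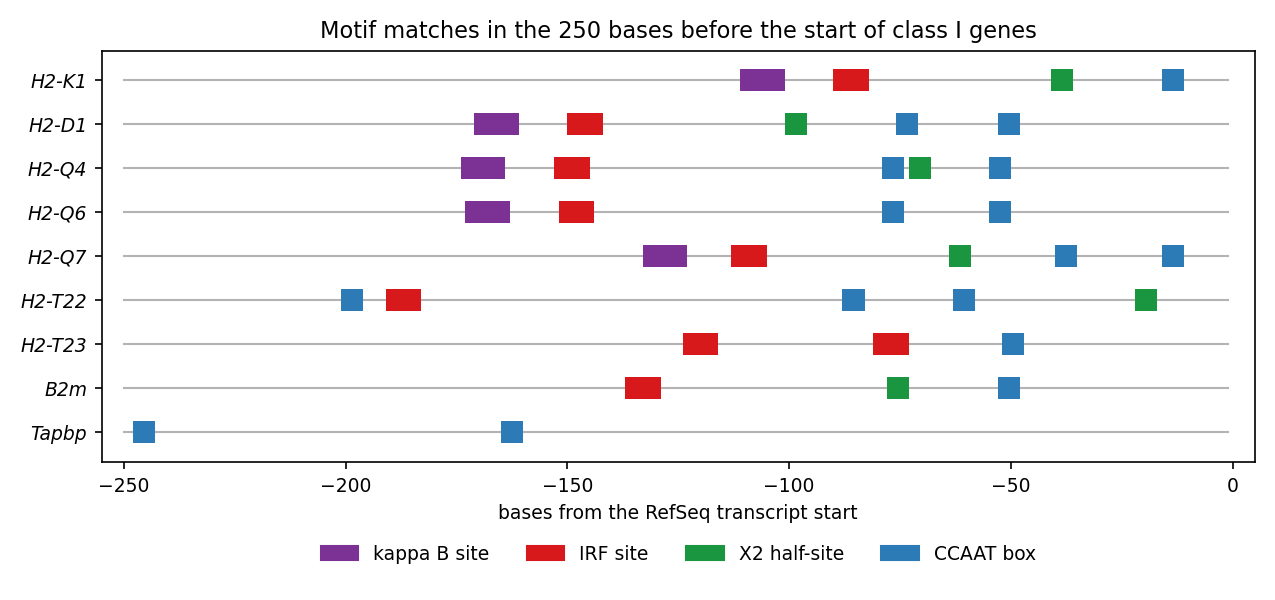
Positions of matches to 4 motifs in the 250 bases before the RefSeq start of 9 class I genes, 1 row per gene, with the start at the right (x axis in bases). The kappa B and IRF matches lie 20 or 21 bases apart in H2-K1, H2-D1, H2-Q4, H2-Q6 and H2-Q7. The kappa B pattern searched is not matched in the other 4, where other forms of the site were not searched.

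Old and young cerebellum were compared to ask how transcript levels differ with age. All 10 genes had positive log2 fold changes (old minus young), with a median of 0.96, beside a median of -0.01 over all 14191 genes and positive values in 48.6% of them. H2-Q6 and H2-Q7 rose in old mice, where the call is a Benjamini-Hochberg adjusted p under 0.05 in edgeR's quasi-likelihood fit of age and sex. These 2 of 10 stand beside 17 of 14191 genes past the threshold (0.12%), of which those higher in old mice are 0.0987% and those lower are 0.0211%. For 8 of the 10, all but H2-D1 and Tapbp, every old library lay above every young one, against 3.15% of all genes, or 6.57% counting either direction. The same number, 8 of 10, had an unadjusted p under 0.05 and were higher in old mice, against 5.25% of all genes; here H2-T22 and Tapbp were the exceptions. In RNA of a whole tissue, more cells of a type and more RNA per cell cannot be told apart.

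**Figure D2:**
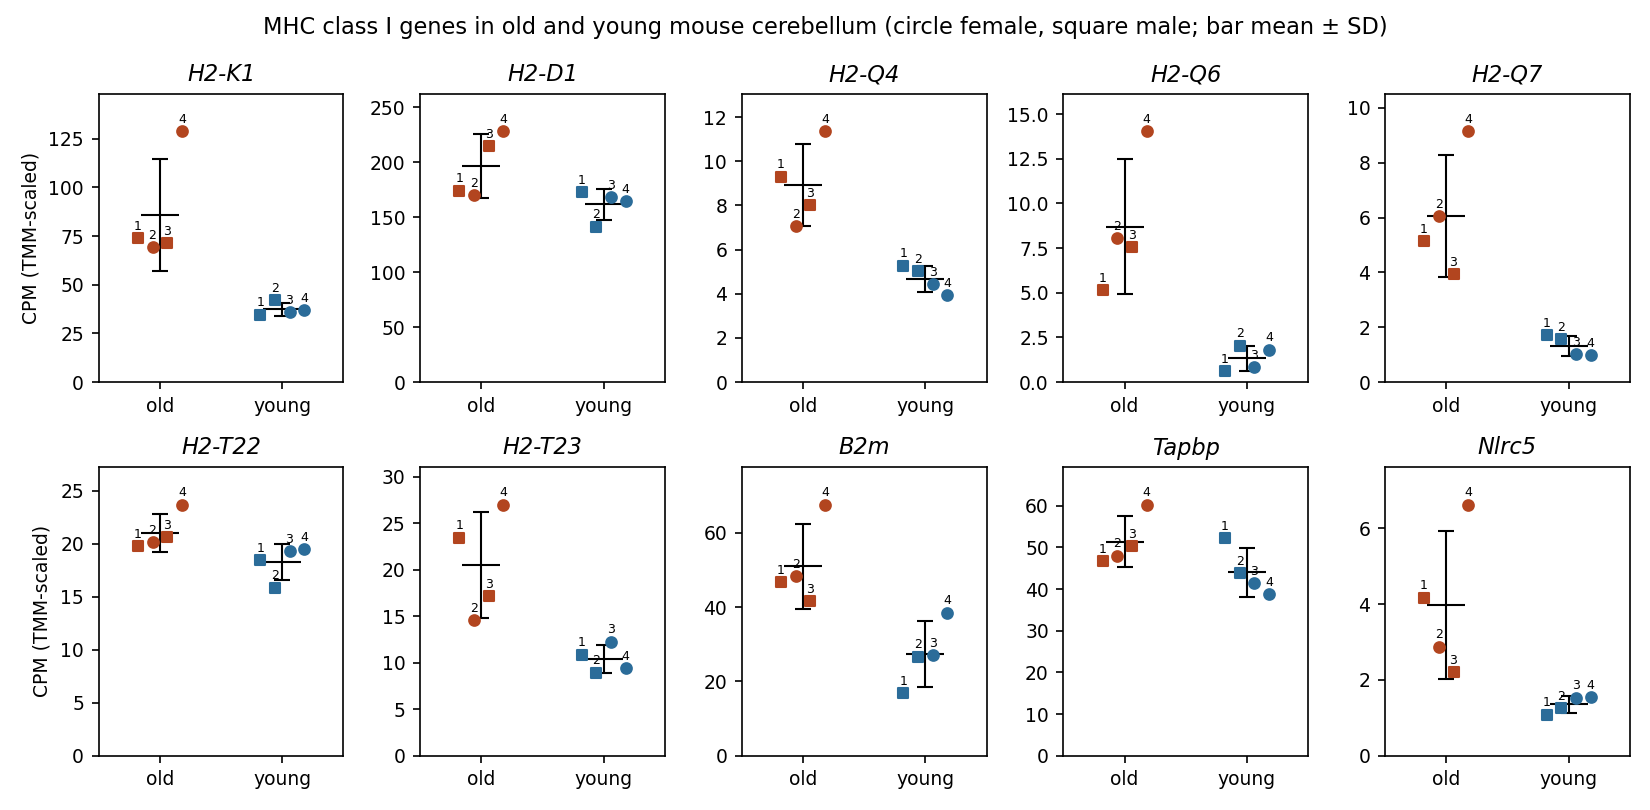
Levels of the 10 genes in CPM (y axis, from 0, its own scale in each panel) in the 4 old and 4 young libraries (numbered points; circles female, squares male), with bars for the mean ± SD. Old 4 is the highest old library in every panel, and old and young points overlap in H2-D1 and Tapbp.

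H2-K1 encodes a classical heavy chain and lies on chromosome 17 at 33996017 to 34000347 on the minus strand. It had 74.1, 69.2, 71.2 and 129 CPM in old 1 to old 4, against 34.6, 42.0, 36.0 and 36.9 CPM in young 1 to young 4. Every old value lay above every young one, and old 4 stood apart from the other 3 old libraries, which lay close together. Old mice averaged 85.9 ± 28.8 CPM and young mice 37.4 ± 3.25 CPM (SD, n = 4 each). The log2 fold change was 1.19 ± 0.20 (SE), and it did not pass over all genes, with an edgeR adjusted p of 0.0635. It was past the threshold without old 4 (0.92 ± 0.10, edgeR adjusted p = 0.0111) and without old 2 (1.31 ± 0.17, edgeR adjusted p = 0.0124).

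H2-D1, the other classical heavy chain, lies at 35262730 to 35267499 on chromosome 17 and was the most abundant of the 10. It had 174, 170, 214 and 228 CPM in old 1 to old 4, against 173, 141, 168 and 164 CPM in young 1 to young 4. Old 3 and old 4 lay above all young libraries, while old 2 lay below young 1, so the groups overlapped. Its log2 fold change of 0.28 ± 0.11 (SE) did not pass, with an edgeR adjusted p of 0.37. When counts were scaled to unadjusted library totals, every old value of H2-D1 lay above every young one, which made 9 of 10 genes, against 4.5% of all genes; with DESeq2's size factors it was 8 of 10, against 3.24%.

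H2-Q6 and H2-Q7 belong to the Qa-2 family of nonclassical heavy chains, some of which are tied to the membrane by a lipid anchor. H2-Q6 had 5.13, 8.06, 7.55 and 14.0 CPM in old 1 to old 4, against 0.62, 2.04, 0.852 and 1.82 CPM in young 1 to young 4. Its lowest old value was 2.52 times its highest young value, and its log2 fold change was 2.65 ± 0.36 (SE, edgeR adjusted p = 0.0282). The young libraries held only 4, 13, 5 and 13 counts of it, so the size of the fold is less certain than its direction.

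H2-Q7 had 5.13, 6.04, 3.93 and 9.15 CPM in old 1 to old 4, against 1.71, 1.57, 1.02 and 0.982 CPM in young 1 to young 4. The groups did not overlap, the log2 fold change was 2.18 ± 0.33 (SE, edgeR adjusted p = 0.034), and the young libraries held 6 to 11 counts. Over the transcripts annotated in GENCODE M21, 8.36% of the 100-base words of H2-Q6 also occur in H2-Q7, and 5.56% of those of H2-Q7 occur in H2-Q10. The coding sequences of H2-Q6 and H2-Q7 are 95.4% identical, so reads may be split between them. Summed to 1 row before the fit, the pair had 64, 98, 73 and 147 counts in old 1 to old 4, against 15, 23, 11 and 20 counts in young 1 to young 4. Every old library held more than any young one, and the log2 fold change of the sum was 2.44 ± 0.28 (SE, edgeR adjusted p = 0.00851).

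The separate calls of H2-Q6 and H2-Q7 depended on which libraries were in the fit. The edgeR adjusted p for H2-Q6 was 0.0781 without old 1, 0.176 without young 1, 0.0909 without young 3 and 0.0756 without young 4, with log2 fold changes of 2.40 to 2.77. For H2-Q7 it was 0.129 without old 1, 0.0621 without old 4, 0.176 without young 1, 0.0903 without young 2, 0.141 without young 3 and 0.116 without young 4, with log2 fold changes of 1.94 to 2.41. Each of these fits gave a positive fold. Of all genes, 0.0138% passed without old 1, 0.434% without old 2, 0.0897% without old 4, 0.0137% without young 1 and 0.055% without young 2. By DESeq2's Wald test 5 of the 10 genes passed, against 0.881% of all genes, and with the granule neuron marker score as a covariate 3 of the 10 did, against 0.994%. By limma-voom none of the 10 passed, against 0.00705% of all genes, and with the choroid plexus marker score as a covariate none did, against 0% of all genes and 1346 genes at an unadjusted p under 0.05 by edgeR. The folds stayed positive in these fits: on the log2 scale H2-Q6 had 2.60 by limma-voom and 2.82 with the choroid plexus score, and H2-Q7 had 2.08 and 2.01.

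H2-Q4, another nonclassical heavy chain of the Q cluster, lies at 35379617 to 35385290 on chromosome 17. It had 9.31, 7.05, 8.02 and 11.4 CPM in old 1 to old 4, against 5.27, 5.02, 4.43 and 3.93 CPM in young 1 to young 4. No old value reached down to a young one, and the log2 fold change of 0.94 ± 0.21 (SE) did not pass, with an edgeR adjusted p of 0.126. Of its 100-base words, 14.1% occur in other annotated genes.

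H2-T23 encodes Qa-1, which presents leader peptides of other class I chains to receptors of natural killer cells, and lies at 36029773 to 36032855 on chromosome 17. It had 23.4, 14.5, 17.1 and 27.0 CPM in old 1 to old 4, against 10.9, 8.94, 12.3 and 9.40 CPM in young 1 to young 4. Old 1 and old 4 were the highest, and all 4 old values lay above the young ones. The log2 fold change of 0.98 ± 0.21 (SE) did not pass, with an edgeR adjusted p of 0.125, but did so without old 2 (1.16 ± 0.18, edgeR adjusted p = 0.0216).

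H2-T22, which is recognised by some gamma-delta T cells without a bound peptide, lies at 36037128 to 36042747 on chromosome 17. Its levels were 19.7, 20.1, 20.6 and 23.7 CPM in old 1 to old 4, against 18.5, 15.8, 19.3 and 19.5 CPM in young 1 to young 4. The lowest old value was 1.01 times the highest young one, so the groups were apart by little. Its log2 fold change of 0.20 ± 0.11 (SE) did not pass, with an edgeR adjusted p of 0.554. Of its 100-base words 31.5% occur in other annotated genes, 24.01% of all its words in A930015D03Rik and 6.92% in H2-T10, so its value may include reads of these.

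B2m encodes beta-2 microglobulin, the light chain that all these heavy chains pair with, and lies on chromosome 2 at 122147686 to 122153083. It had 46.7, 48.2, 41.5 and 67.5 CPM in old 1 to old 4, against 16.7, 26.7, 27.1 and 38.4 CPM in young 1 to young 4. Young 4 came closest to the old libraries, and the groups did not overlap. Old mice averaged 51.0 ± 11.4 CPM and young mice 27.2 ± 8.87 CPM (SD, n = 4 each), a log2 fold change of 0.91 ± 0.17 (SE) with an edgeR adjusted p of 0.0757. It was past the threshold without old 2 (1.03 ± 0.17, edgeR adjusted p = 0.0271). None of its 50-base or 100-base words occur in another annotated gene.

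Tapbp encodes tapasin, which holds empty class I molecules at the peptide transporter TAP, and lies at 33915899 to 33929292 on chromosome 17. It had 46.7, 48.1, 50.3 and 60.3 CPM in old 1 to old 4, against 52.3, 43.9, 41.4 and 38.7 CPM in young 1 to young 4. Young 1 lay above old 1, old 2 and old 3, so the groups overlapped. The log2 fold change of 0.22 ± 0.12 (SE) did not pass, with an edgeR adjusted p of 0.53. It was 0.11 without old 4.

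Nlrc5, the transactivator of class I genes, lies on chromosome 8 at 94434356 to 94527272. It held 26, 20, 14 and 42 counts in old 1 to old 4, against 7, 8, 9 and 11 counts in young 1 to young 4. These are 4.17, 2.88, 2.2 and 6.63 CPM in old 1 to old 4, against 1.09, 1.25, 1.53 and 1.54 CPM in young 1 to young 4. The old libraries differed widely among themselves, with old 4 highest and old 3 lowest, and all lay above the young ones. The log2 fold change of 1.52 ± 0.38 (SE) did not pass, with an edgeR adjusted p of 0.18. It passed in a fit of old 1 and old 4 against young 1, young 2 and young 3, the libraries lower in liver transcripts (1.94 ± 0.38, edgeR adjusted p = 0.0127). That fit also left out both mice of 83 weeks and kept the old libraries highest in Nlrc5. Liver transcripts, age and the choice of high values cannot be told apart there.

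Old 4, the oldest mouse at 102 weeks, was the highest of the 4 old libraries for each of the 10 genes. The median deviation of the 10 genes from their own means over the 8 libraries was 0.47, 0.22, 0.26 and 0.90 on the log2 scale in old 1 to old 4, against -0.51, -0.42, -0.44 and -0.53 in young 1 to young 4. Among the young libraries no one stood highest for most genes: young 1 was highest for 4 genes and lowest for 4. Within the old group the coefficient of variation ran from 8.51% for H2-T22 to 49.2% for Nlrc5, and within the young group from 8.66% for H2-D1 to 52.6% for H2-Q6. Fitted on age in weeks in place of 2 groups, 7 of the 10 genes passed, all but H2-D1, H2-T22 and Tapbp, against 0.726% of all genes. Of these 7, old 1 at 93 weeks lay above both mice of 83 weeks for H2-K1, H2-Q4, H2-T23 and Nlrc5. It lay below old 2 for B2m and H2-Q7, and below both for H2-Q6. A graded rise within the old group was not tested.

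**Figure D3:**
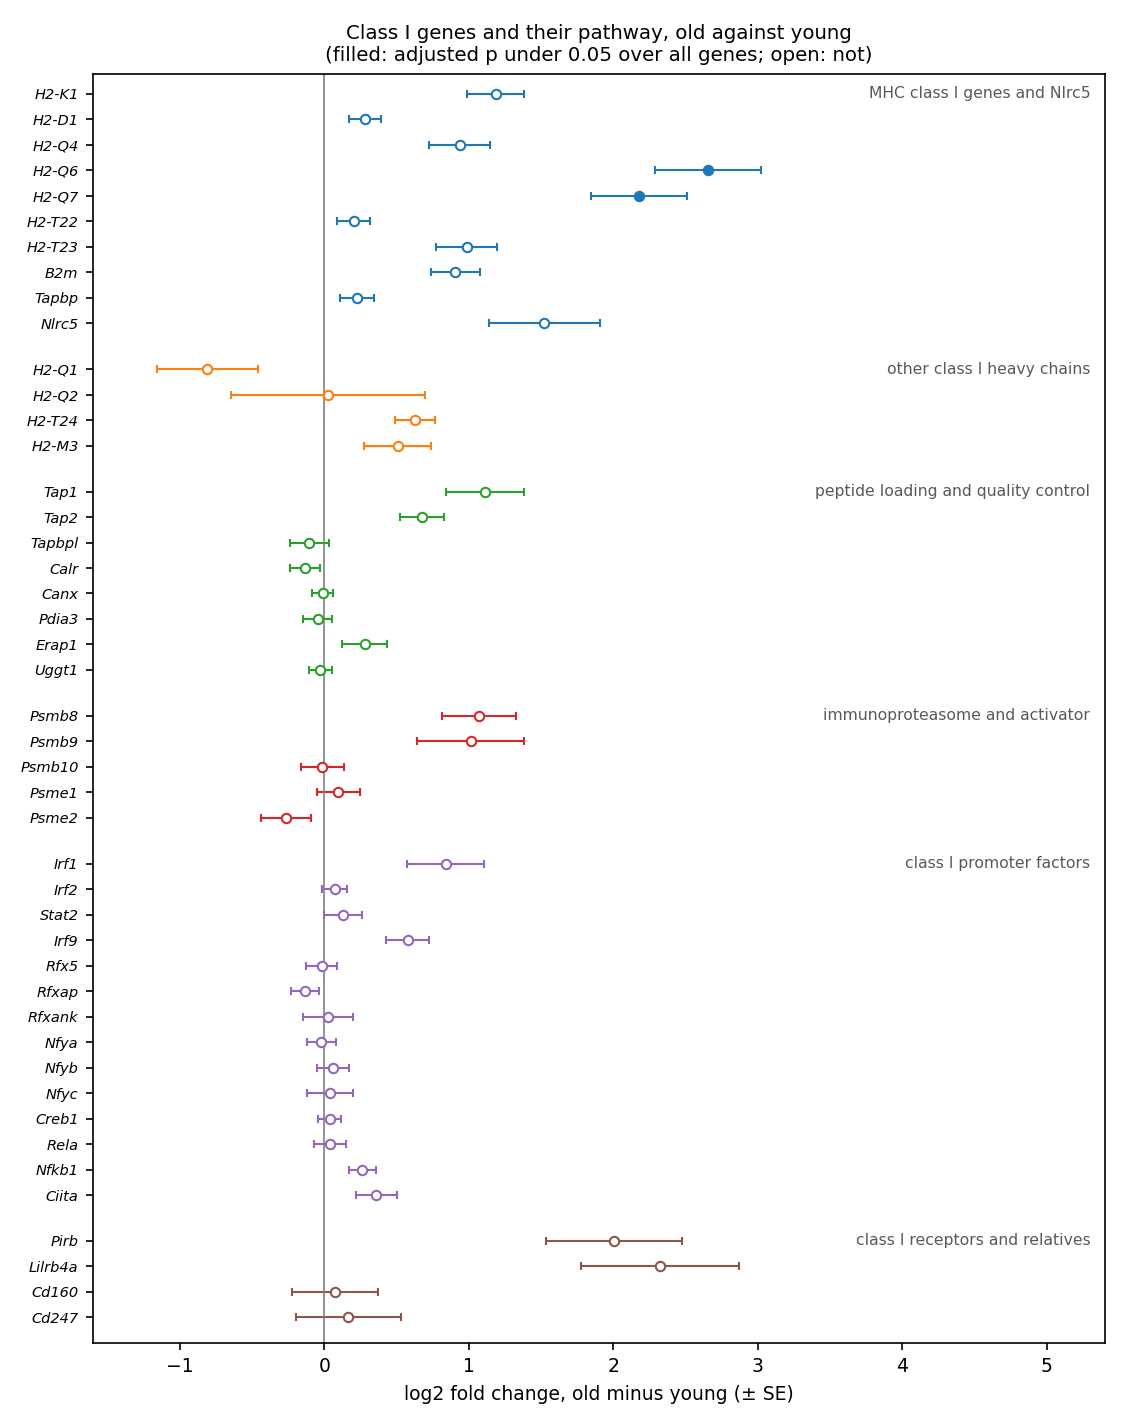
Log2 fold changes of old over young mice (x axis, ± SE) for the 10 genes and for tested genes of 5 related lists, all but 1 promoter factor (y axis); filled points passed an adjusted p of 0.05 over all genes. H2-Q6 and H2-Q7 are the filled points, and the loading chaperones Calr, Canx and Pdia3 lie between -0.13 and -0.01.

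Levels of different genes were compared per kilobase of the longest protein-coding transcript in GENCODE M21. In old mice H2-D1 led at 93.6 ± 13.8 CPM per kb, followed by B2m at 59.3 ± 13.3, H2-K1 at 53.0 ± 17.8 and Tapbp at 17.7 ± 2.12 CPM per kb (SD, n = 4). In young mice the order of these 4 was the same, with H2-D1 at 77.0 ± 6.67, B2m at 31.7 ± 10.3, H2-K1 at 23.1 ± 2.00 and Tapbp at 15.2 ± 2.02 CPM per kb (SD, n = 4). The ranges of B2m and H2-K1 overlapped at both ages, so their order is not resolved.
H2-T23 and H2-T22 followed in old mice, at 13.9 ± 3.87 and 11.9 ± 1.02 CPM per kb with overlapping ranges. In young mice they changed places, with H2-T22 at 10.4 ± 0.953 and H2-T23 at 7.04 ± 1.03 CPM per kb and no overlap. H2-Q4, H2-Q6 and H2-Q7 lay at 4.98 ± 1.04, 4.17 ± 1.82 and 3.98 ± 1.47 CPM per kb in old mice, within each other's spread. In young mice H2-Q4 at 2.60 ± 0.336 lay above H2-Q7 at 0.866 ± 0.244 and H2-Q6 at 0.64 ± 0.337 CPM per kb. Nlrc5 was lowest at both ages, at 0.524 ± 0.258 CPM per kb in old and 0.179 ± 0.0295 CPM per kb in young mice.

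The makeup of the heavy chain counts differed with age. The 7 heavy chain genes together had 1938, 2050, 2181 and 2803 counts in old 1 to old 4, against 1576, 1383, 1421 and 1689 counts in young 1 to young 4. H2-D1 made up 56.9 ± 4.52% of them in old and 68.7 ± 2.41% in young mice (SD, n = 4 each), and H2-K1 made up 24.3 ± 3.51% in old and 15.99 ± 2.33% in young mice. The ratio of H2-K1 to H2-D1 counts was 0.426, 0.407, 0.332 and 0.565 in old 1 to old 4, against 0.2, 0.297, 0.214 and 0.224 in young 1 to young 4. Neither of these shares nor the ratio overlapped between the ages. They are descriptions of genes chosen with their changes known and were not tested.
H2-Q4, H2-Q6 and H2-Q7 together made up 6.30%, 7.17%, 5.69% and 7.81% of the heavy chain counts in old 1 to old 4, against 3.11%, 3.98%, 2.60% and 2.84% in young 1 to young 4. The closest pair were old 3, with a 95% exact interval of 4.75% to 6.74%, and young 2, with 3.01% to 5.15%. Those 2 intervals overlap, although the 4 old shares all lay above the young ones. The 2 H2-T genes made up 12.02 ± 1.28% in old and 12.2 ± 0.660% in young mice (SD, n = 4 each), with overlapping ranges.
Heavy chain counts per B2m count were 6.66, 6.12, 8.26 and 6.55 in old 1 to old 4, against 14.6, 8.14, 8.94 and 6.16 in young 1 to young 4. These ranges overlapped, and the widest value was that of young 1. Tapbp counts per heavy chain count were 0.136 to 0.163 in old and 0.163 to 0.214 in young libraries, with each old value below each young one. The groups were apart by little, with old 2 at 0.1629 and young 4 at 0.1634.

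**Figure D4:**
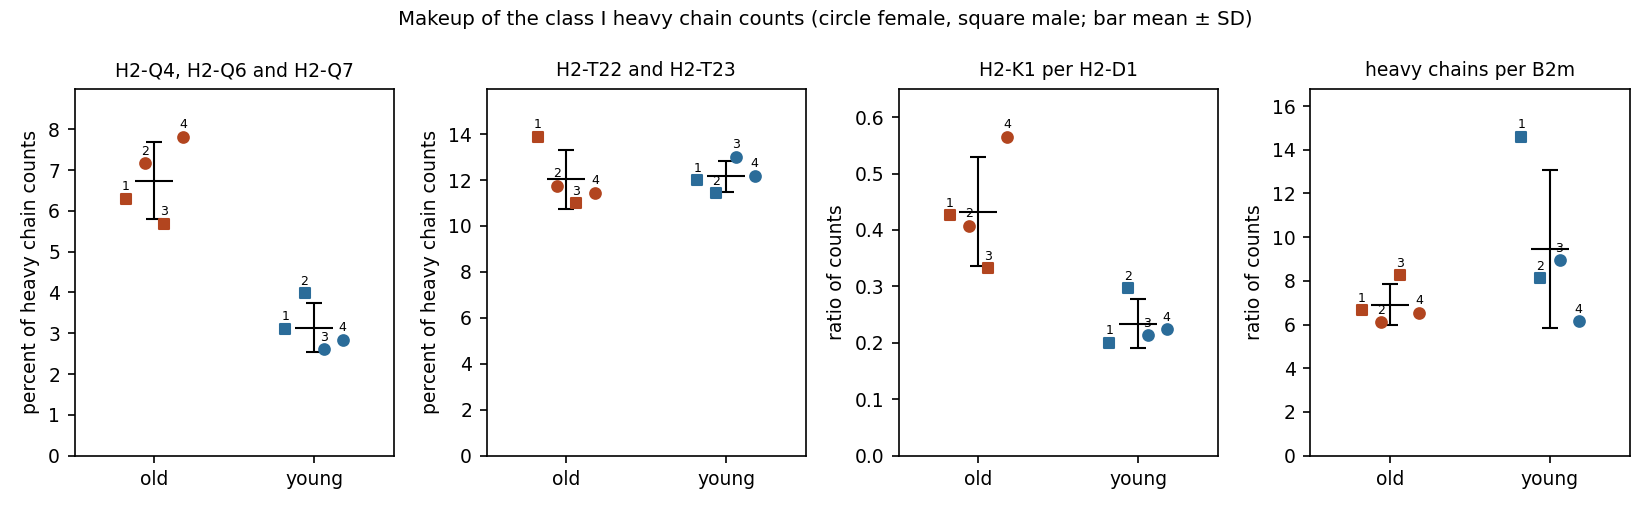
Share of the heavy chain counts held by the H2-Q genes and by the H2-T genes (y axis in percent), H2-K1 counts per H2-D1 count and heavy chain counts per B2m count (y axis as ratios) in the 4 old and 4 young libraries (circles female, squares male), with bars for the mean ± SD. The H2-Q shares are 5.69% to 7.81% in old and 2.60% to 3.98% in young libraries, and the H2-T shares overlap.

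The steps that supply peptides to class I molecules had 8 loading and quality control genes tested, of which 3 lay above 0 and 5 below. Their median log2 fold change was -0.02, and none passed in either direction. Tap1 and Tap2, the subunits of the peptide transporter, had 1.11 ± 0.27 and 0.68 ± 0.15 on the log2 scale, each with no overlap between the ages (edgeR adjusted p = 0.153 and 0.126). Tap1 held 36, 37, 30 and 65 counts in old 1 to old 4, against 15, 19, 20 and 23 in young 1 to young 4. Erap1, the peptidase that trims peptides in the endoplasmic reticulum, had 0.28 ± 0.16, and the lectin chaperone calreticulin, Calr, had -0.13 ± 0.10.
Of 5 genes of the immunoproteasome and its activator 3 lay above 0; the median was 0.10 and no gene passed. The induced catalytic subunits Psmb8 and Psmb9 had 1.07 ± 0.25 and 1.01 ± 0.37, with no overlap between ages. Psmb10, also an induced catalytic subunit, had -0.01 ± 0.15 with overlapping ages. The activator subunits Psme1 and Psme2 had 0.10 ± 0.15 and -0.26 ± 0.17.

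Among 15 factors that act on class I promoters 12 lay above 0 and 3 below; the median was 0.06 and no gene passed. The interferon pathway factors Irf1 and Irf9 had log2 fold changes of 0.84 ± 0.27 and 0.58 ± 0.15, with no overlap between the ages. Their edgeR adjusted p were 0.261 and 0.191. Stat2 and Irf2, of the same pathway, had 0.13 ± 0.13 and 0.07 ± 0.09, with overlap between the ages. Irf9 held 154, 138, 156 and 179 counts in old 1 to old 4, against 102, 109, 76 and 135 in young 1 to young 4. Nfkb1, a subunit of NF-kappa B, had 0.26 ± 0.10. The enhanceosome factors Rfx5, Rfxap, Rfxank, Nfya, Nfyb, Nfyc and Creb1 lay between -0.13 and 0.06.
Of 8 tested interferon receptor and signalling genes 5 lay above 0; their median was 0.03 and no gene passed. Socs1, an inhibitor of the JAK kinases, had -0.89 ± 0.36 and Jak2 0.22 ± 0.12, while Jak1 had -0.13 ± 0.08 and Tyk2 0.14 ± 0.10. The ligands Ifng and Ifnb1 were listed but were not among the genes counted, so their transcripts could not be analysed.

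Of 20 further class I heavy chain genes listed, 4 were tested and 3 lay above 0; the median was 0.27 and no gene passed. H2-T24 had 0.63 ± 0.14 on the log2 scale with no overlap between the ages, from 129, 124, 137 and 133 counts in old 1 to old 4, against 94, 71, 68 and 106 in young 1 to young 4. H2-M3, which presents formylated peptides, had 0.51 ± 0.23 and H2-Q2 0.02 ± 0.67, while H2-Q1 had -0.81 ± 0.35.
Of 16 receptors of class I, their relatives and their signalling partners 4 were tested and all 4 lay above 0; the median was 1.09 and no gene passed. Pirb, a class I receptor of myeloid cells and neurons, held 12, 13, 12 and 25 counts in old 1 to old 4, against 6, 4, 2 and 3 in young 1 to young 4. No old count was as low as a young one, and its log2 fold change of 2.00 ± 0.47 had an edgeR adjusted p of 0.137. The related inhibitory receptor Lilrb4a had 2.32 ± 0.55, also with no overlap, while the natural killer receptor Cd160 had 0.08 ± 0.30 and the signalling chain Cd247 0.17 ± 0.36. The T cell genes Cd8a, Cd8b1, Cd3d, Cd3e and Cd3g had too few counts to be tested, at 6 counts or fewer in each library.

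Markers of microglia, endothelium and border macrophages were compared between the ages, and none of them passed. All 10 microglia markers lay above 0 on the log2 fold change scale, at a median of 0.56. Old and young did not overlap for 4 of them, and no marker passed. They summed to 205, 170, 151 and 252 CPM in old 1 to old 4, against 115, 161, 160 and 115 CPM in young 1 to young 4, so old 3 lay below young 2 and young 3. Old 4 was the highest library for these markers as it was for the class I genes. The 10 endothelial markers, 7 of them positive, had a median of 0.15 and summed to 212 to 293 CPM in old and 189 to 261 CPM in young libraries. Of 8 markers of border macrophages and monocytes 6 were tested, all positive with a median of 0.34, and they summed to 17.6 to 42.6 CPM in old and 13.7 to 22.5 CPM in young libraries.
Markers of T and NK cells summed to 2.36 to 5.37 CPM in old and 2.39 to 3.72 CPM in young libraries. They were 12 listed genes, of which none was tested. Cd3g held 1, 1, 0 and 2 counts in old 1 to old 4, against 0 in all young libraries, all under the floor of 3 counts. B and plasma cell markers summed to 1.01 to 5.05 CPM in old and 0.465 to 1.19 CPM in young libraries. Neutrophil markers summed to 19.7 CPM in old 1 and 14.8 CPM in old 4, against 2.73 and 1.89 CPM in old 2 and old 3 and 0.157 to 2.22 CPM in young libraries. The 6 erythroid markers all lay above 0 with none past the threshold, at a median of 0.52, and summed to 65.1 to 127 CPM in old and 48.8 to 81.8 CPM in young libraries.

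**Figure D5:**
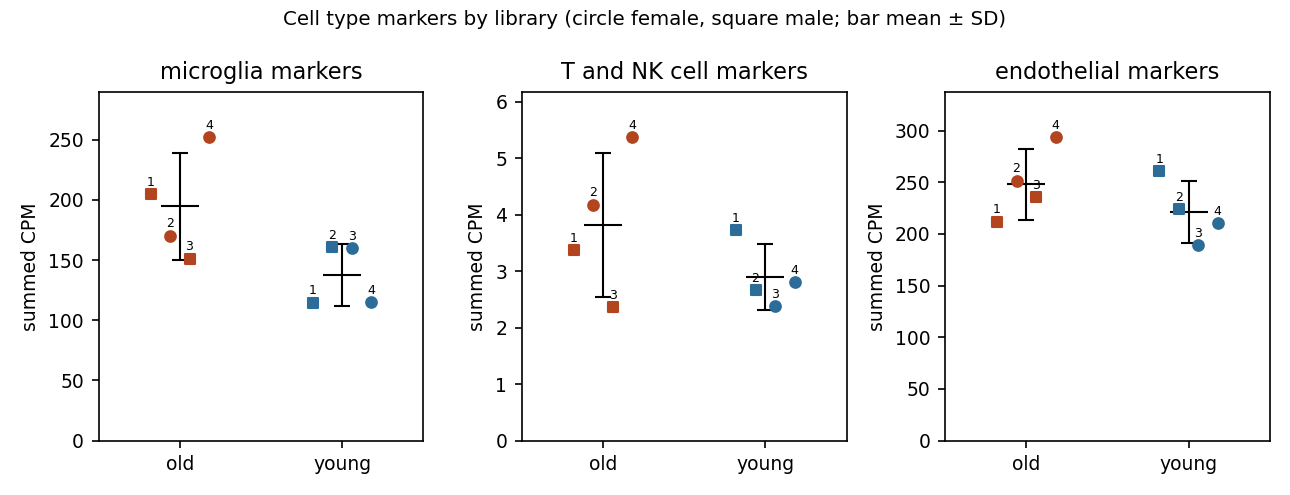
Summed CPM (y axis, from 0) of markers of microglia, of T and NK cells and of endothelium in the 4 old and 4 young libraries (circles female, squares male), with bars for the mean ± SD. The microglia sums are 151 to 252 CPM in old and 115 to 161 CPM in young libraries, and old and young overlap in all 3 panels.

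Set against the summed microglia markers of the same library, H2-K1, H2-Q6, H2-Q7 and Nlrc5 were higher in every old than in every young library (4 of 10, against 0.521% of all genes), and the other 6 genes overlapped. H2-K1 counts per microglia marker count were 0.362, 0.407, 0.471 and 0.512 in old 1 to old 4, against 0.302, 0.262, 0.225 and 0.32 in young 1 to young 4. For B2m the ratios were 0.228, 0.283, 0.274 and 0.268 in old 1 to old 4, against 0.146, 0.166, 0.17 and 0.333 in young 1 to young 4, where young 4 was the highest of all. With the microglia marker score of each library as a covariate, the log2 fold change was 2.17 ± 0.50 for H2-Q6 (edgeR adjusted p = 0.0453) and 1.53 ± 0.44 for H2-Q7 (edgeR adjusted p = 0.0885). In the same fit it was 0.68 ± 0.21 for H2-K1, 0.69 ± 0.26 for B2m, 0.52 ± 0.29 for H2-Q4, 0.50 ± 0.26 for H2-T23 and 0.55 ± 0.47 for Nlrc5, none of which passed. H2-D1, H2-T22 and Tapbp had 0.32 ± 0.17, 0.22 ± 0.18 and 0.13 ± 0.17 there. Of all genes 1.79% passed in that fit, and 1 of the 10 did. Besides microglia, the granule neuron and choroid plexus scores were fitted as covariates, and the part of the other cell type markers in these results was not tested.

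Between the sexes, none of the 10 genes passed edgeR's test, where 6 of 14191 genes did (0.0423%). B2m alone had an unadjusted p under 0.05 for sex, against 4.76% of all genes, at 45.3 CPM in females and 32.9 CPM in males on average (log2 fold change, female minus male, 0.48 ± 0.17). The difference of the age effect between the sexes was tested in a fit of the 4 age-by-sex groups of 2 mice each. No gene passed it by edgeR (0%), while 326 of 14191 genes (2.3%) and none of the 10 had an unadjusted p under 0.05. H2-Q7 came closest, with 7.60 CPM in old females and 4.53 CPM in old males, against 1.002 CPM in young females and 1.64 CPM in young males. Its age difference was larger in females by 1.43 ± 0.67 on the log2 scale, with an edgeR adjusted p of 0.9999. H2-K1 averaged 99.1 CPM in old females and 72.7 CPM in old males, against 36.4 CPM in young females and 38.3 CPM in young males. The difference of its age effect between the sexes was 0.51 ± 0.37. Among the old females old 4 had 129 CPM, while old 2 had 69.2 CPM, below both old males at 74.1 and 71.2 CPM.

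The profiles over the 8 libraries, each centred on its own mean, were compared by their root mean square difference in log2 CPM. Within the group, H2-D1 and H2-T22 were most alike, at 0.10, followed by H2-D1 and Tapbp at 0.14, and H2-K1 was closest to H2-Q4 at 0.23 and to Nlrc5 at 0.26. Among 13541 other genes, the closest to H2-K1 were the complement subunit C1qb at 0.13, the immunoproteasome subunit Psmb8 at 0.14, the protease Ctss at 0.16, the myosin Myo1f at 0.16 and the leukocyte tetraspanin Cd53 at 0.16, where the median gene was at 0.66. The closest to B2m were Mndal at 0.13, Pcdhb11 at 0.17, Gbp3 at 0.19, Plek at 0.22 and Zc3hav1 at 0.23, with a median gene at 0.61. For H2-Q7 they were Csf3r at 0.18, Rsad2 at 0.29, Lgals3bp, Mpeg1 and C1qa at 0.34, with a median gene at 1.05. The likeness is a description over 8 libraries that share the age contrast.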

How the data were processed

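Total RNA of frozen cerebellum from 8 mice went into ribosomal RNA depleted libraries, per the labels' protocols. The authors deposited raw counts per gene, 1 table per library, per the file headers; all values were whole numbers. The submitters' processing notes name GRCm38 and mm10 as builds, STAR 2.7.5b and featureCounts. Not given in the sources used here are the annotation, the strand setting and how multi-mapping reads were handled. Near-identical class I genes may therefore share reads. Rows were matched across tables in their shared order, checked name by name, because spreadsheet-style dates stood for 24 gene names in 7 of them; no class I gene was among these.

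The 10 genes, the lists of related genes and markers and the tests were chosen with earlier results of these data known. Genes were kept by filterByExpr (minimum 10 counts) and scaled by TMM, and age and sex were fitted over all 8 libraries by the quasi-likelihood method of edgeR 4.0.16 under R 4.3.3, with robust, newer-type dispersions. The standard error was derived from each fold change and its F statistic. Benjamini-Hochberg adjustment covered all tested genes, with a threshold of 0.05. A prior count of 2 entered log2 CPM. Named beside the 10 genes were, per list, those past the threshold or up to 4 with the smallest p for age, and the 5 genes most like each of B2m, H2-K1 and H2-Q7 among genes averaging 1 or more in log2 CPM; a few more list genes are named for their roles, and 1 promoter factor is counted in its list but not reported here by name. Alternatives used DESeq2 1.42.0 and limma 3.58.1. The test was tried on simulated counts with known changes. Each pair of libraries of the same age differed by more than sampling noise. Coordinates are from GENCODE M21 (GRCm38), and promoters from RefSeq (GRCm38.p6), of which the H2-D1 and H2-T23 stretches, which overlap an annotated exon, are not shown.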

Additional observations from a re-analysis of the deposited data

Results flagged for a closer look

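H2-K1 in old 4 stood apart from the other old libraries, at 129 CPM against 69.2 to 74.1 CPM. The gap to the nearest of them was 0.918 of the whole range of the old group, above Dixon's 95% critical value for 4 samples. In all, 40 groups of 4 values were checked, for the levels of the 10 genes and for the shares and ratios of the heavy chain counts, and this was the only value past the limit, where chance gives about 1 in 20. Old 4 was also the highest old library for 10 of 15 marker lists. Its sums were 252 CPM for microglia, against 151 to 205 CPM in the other old libraries, 42.6 CPM for border macrophages and monocytes, against 17.6 to 22.6 CPM, and 293 CPM for endothelium, against 212 to 252 CPM. For B and plasma cells it had 5.05 CPM, against 1.01 to 2.73 CPM, and for erythroid markers 127 CPM, against 65.1 to 104 CPM. Their part in its H2-K1 level was not tested.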

How the results depend on the processing

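All 10 genes kept positive log2 fold changes in each alternative in which they were tested, 224 values in all, of which 189 stayed on the same side of the threshold, 17 lost the call and 18 gained it; the libraries are the same, so this is no independent support. The count of genes past the threshold for age, 17 in the main test, was 36 with unadjusted library totals (an alternative added after seeing the data), 26 with the older edgeR dispersions, 125 by DESeq2's Wald test and 1 by limma-voom. It was 103 with age in weeks and 184 without old 2, old 3 and young 4. Marker scores as covariates gave 141 for granule neurons, 0 for choroid plexus and 254 for microglia. With the choroid plexus score, 1346 genes had an unadjusted p under 0.05. Of the 10 genes, 2 in the main test, 5 passed by DESeq2 (0.881% of all genes), 7 with age in weeks, 7 without old 2, old 3 and young 4 (1.28%), 1 with the microglia score, and 0 by limma-voom and with the choroid plexus score. A filter of 50 counts in 4 libraries left out H2-Q4, H2-Q6, H2-Q7 and Nlrc5, and 0 of the 6 left passed, against 0.108% of all genes. Leaving out 1 library at a time gave 0 to 63 genes and 0 to 5 of the 10 for age, 4 to 46 genes for sex and 0 to 2 genes for the difference between the sexes, with none of the 10 among them for sex or for that difference. Without young 3 or young 4 no gene passed for age by edgeR, with 1390 and 1528 at an unadjusted p under 0.05. The causes were not tested.

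The deviations of same-numbered old and young libraries had correlations of 0.16, -0.22, -0.05 and -0.25. Whether the numbers pair the mice cannot be told from these values. With the replicate number as a block 1 gene passed (0.00705%) and 0 of the 10. In that fit H2-Q6 was at 2.77 (edgeR adjusted p = 0.067) and H2-Q7 at an edgeR adjusted p of 0.225. The block adds terms to a fit of the same few libraries, so the calls lost there say little. Counts of 4 to 13 per young library limit the precision of H2-Q6, H2-Q7 and Nlrc5.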

Other observations

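Among molecules that share the class I fold, 3 of 11 listed were tested and none passed. Hfe, which acts in iron sensing, had 45, 76, 46 and 59 counts in old 1 to old 4, against 43, 38, 39 and 45 in young 1 to young 4, a log2 fold change of 0.44 ± 0.17 with no overlap between the ages once scaled to CPM. Mr1, which presents microbial metabolites, had 0.47 ± 0.21, and Fcgrt, the neonatal Fc receptor, had -0.11 ± 0.15. H2-Q1 had a log2 fold change of -0.81 ± 0.35, with 28, 25, 13 and 13 counts in old 1 to old 4, against 32, 51, 37 and 19 in young 1 to young 4 (edgeR adjusted p = 0.427).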
